A study of Mus musculus with 32 samples.

Results

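The interleukin 1 family genes examined here were Il1a, Il1b, Il1rn, Il1r1, Il1r2, Il1rap, Il18, Il18bp and Il33, chosen by their symbols. Of these 9 genes, 8 had a row among the 17586 genes of the table, and Il1r2 was not analysed here. RNA was sequenced from cells sorted from dissociated mouse brain, in 4 populations of 8 libraries each. Normal microglia were taken from tumour-free, ungrafted mice of the strains C57BL/6J (called WT below, 4 libraries) and Pep3/CD45.1 (called Pep3 below, 4 libraries). The other 3 populations came from immunocompetent chimeric mice, labelled PEP-3 into WT or WT into PEP-3, that carried a syngeneic GL-261 tumour, a mouse glioma line, in the brain. These were microglia, differentiated macrophages and undifferentiated macrophages of the tumour-bearing brain, each with 4 libraries from WT and 4 from Pep3 recipients. The labels number 4 experiments: 1 and 2 held normal microglia of WT and Pep3 mice, 3 held tumour microglia from Pep3 with macrophages from WT recipients, and 4 the reverse. The labels gave no treatment, no age of the mice and no sorting gates. They did not say which libraries came from separate animals, so the p-values cover only the variation among the libraries sequenced, which may be technical.

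Interleukin 1 is an alarm signal of innate immunity. Its ligands Il1a and Il1b bind the receptor Il1r1, which recruits the accessory chain Il1rap and passes the signal through Myd88 and Irak kinases to NF-kappaB. Il1rn encodes a receptor antagonist that occupies Il1r1 without signalling, and Il1r2 encodes a decoy receptor. The Il1b and Il18 proteins are made as precursors that caspase-1 cuts in an inflammasome, whereas Il1a is active as a precursor. Il18bp encodes a secreted protein that captures interleukin 18, and Il33 is a nuclear alarmin released from damaged cells. In the brain, microglia and infiltrating macrophages are known sources of interleukin 1, and Il33 is best known from astrocytes and oligodendrocytes.

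Il1a and Il1b are direct neighbours on chromosome 2, and Il1rn lies on the same chromosome beside the family genes Il1f5 and Il1f10. The neighbouring ligands differed in opposite directions between macrophages and tumour microglia and Il1rn followed Il1b, and the sequences at their starts are shown for that reason. Each runs from 250 bases before to 50 bases after an annotated start, 5′ to 3′ on the gene's strand, from RefSeq on build GRCm38.p6. Il1b lies at chr2:129371090-129371389 on the minus strand and Il1a at chr2:129309923-129310222 on the minus strand. The 2 Il1rn windows lie at chr2:24336610-24336909 and chr2:24345121-24345420 on the plus strand, and one more Il1rn start overlaps the later window and is not printed. Capitals mark matches, on either strand, to an NF-kappaB motif (GGG and TTCC with any 3 bases between them). They also mark AP-1 (TGANTCA), C/EBP (TTGCNNAA) and TATA box (TATAAA) motifs, none of which overlapped another here.
Il1b: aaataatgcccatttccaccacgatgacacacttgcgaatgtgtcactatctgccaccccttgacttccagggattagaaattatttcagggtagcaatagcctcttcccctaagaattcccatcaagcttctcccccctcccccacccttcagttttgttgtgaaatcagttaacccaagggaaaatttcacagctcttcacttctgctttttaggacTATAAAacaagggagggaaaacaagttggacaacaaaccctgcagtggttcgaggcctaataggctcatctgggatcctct
Il1a: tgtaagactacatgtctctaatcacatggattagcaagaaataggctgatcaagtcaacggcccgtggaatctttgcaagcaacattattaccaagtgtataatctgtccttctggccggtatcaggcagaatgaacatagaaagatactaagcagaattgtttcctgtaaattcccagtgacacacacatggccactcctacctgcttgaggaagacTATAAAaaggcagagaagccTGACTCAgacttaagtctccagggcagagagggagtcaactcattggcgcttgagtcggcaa
Il1rn, upstream start: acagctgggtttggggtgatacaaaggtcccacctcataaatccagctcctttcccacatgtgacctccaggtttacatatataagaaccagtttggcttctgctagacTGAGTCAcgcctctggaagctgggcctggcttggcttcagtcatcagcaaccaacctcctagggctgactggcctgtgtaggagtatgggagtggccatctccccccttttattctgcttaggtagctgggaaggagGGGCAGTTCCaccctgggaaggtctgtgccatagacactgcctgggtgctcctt
Il1rn, downstream start: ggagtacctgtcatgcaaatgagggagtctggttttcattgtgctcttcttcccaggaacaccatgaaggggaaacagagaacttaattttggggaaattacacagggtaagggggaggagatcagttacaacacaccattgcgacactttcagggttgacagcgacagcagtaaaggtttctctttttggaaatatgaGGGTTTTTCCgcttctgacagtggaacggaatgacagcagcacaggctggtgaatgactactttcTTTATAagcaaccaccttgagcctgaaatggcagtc

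The Il1b window held 1 match, a TATA box whose first base lay at -31 from the start. The Il1a window held a TATA box at -32 and an AP-1 match at -12. Among 32851 promoter windows of the same length, 13.6% held the TATA motif, 7.81% the AP-1 motif and 10.8% the C/EBP motif, which none of the printed windows held. Both printed Il1rn windows held an NF-kappaB match, at -4 in the upstream and at -51 in the downstream window, and 5.56% of all windows held one. The upstream Il1rn window also held an AP-1 match at -141, and the downstream window held a TATA motif on the opposite strand at 14. Of the 13 starts listed for all 9 genes, the 3 of Il1rn and 1 of Il1r1 had an NF-kappaB match. A match describes the letters only, and the absence of one says nothing about binding of the factor.

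The deposited values are signed scores, centred for each gene at 0 over all libraries and within each recipient strain, so a score ranks libraries for 1 gene and says nothing about its level against another gene or against no expression. Total counts per library are not in the table, so depth is unknown. The table lacked variation along 11 directions among the 32 libraries, and 9 libraries kept under 50% of their own variation. Among normal microglia these were library 1 of WT mice and libraries 10, 18 and 26 of Pep3 mice, so that of Pep3 only library 2 was not among them. In the tumour populations they were library 27 of microglia, 28 and 31 of differentiated and 8 and 29 of undifferentiated macrophages. The labels fitted the markers: the mean score over 8 microglia markers lay between 0.61 and 2.45 in every microglia library and between -2.37 and -0.53 in every macrophage library. The mean over 7 markers of monocyte-derived macrophages lay between -2.44 and -1.13 in microglia and between 0.31 and 3.17 in macrophages. Both lists were chosen with earlier results of these data known, so this is no independent check of the labels. Differences below are fitted differences of scores ± SE, averaged over recipient strains, from limma with Benjamini-Hochberg adjustment over all 17586 genes, and a gene is called at an adjusted p under 0.05. In sorted bulk samples, fewer cells of a type and less RNA per cell cannot be told apart.

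Against tumour microglia, both tumour macrophage populations had more Il1b and Il1rn RNA and less Il1a and Il18 RNA, so the 2 ligands of the same receptor went opposite ways. In differentiated macrophages 5 of the 8 measured genes were called, 3 higher and 2 lower, where 43.4% of all genes were called, 37% higher and 6.35% lower. In undifferentiated macrophages 6 of 8 were called, 4 higher and 2 lower, where 41.9% of all genes were called, 36.7% higher and 5.19% lower. Calls were thus frequent over the whole table, and the counts of family genes called higher lie near that background. The 2 called lower in each population are a larger share than over all genes, but rest on Il1a and Il18 alone. The median difference of the 8 genes was 0.81 for differentiated and 0.82 for undifferentiated macrophages, beside 0.65 and 0.71 for all genes. Because most genes scored higher in macrophages, differences were also fitted after subtracting each library's median over all genes. For the 8 family genes the changes are given below where that ends a call or turns a sign. For pathway genes they are given for some only, so other pathway calls may also end. Without the 9 libraries that kept little variation and with no removed directions in the model, 6 genes were called in differentiated and 5 in undifferentiated macrophages; with the directions in the model none was. Without differentiated macrophage library 28, 3 of the 8 genes were called in differentiated macrophages against tumour microglia and 3 against normal microglia. Without undifferentiated macrophage library 21, 3 were called in undifferentiated macrophages against tumour microglia. Both comparisons use the same tumour microglia libraries. For the fits that left libraries out, shares of all genes called are not given here, so those counts have no background. Markers of other leukocytes were called in the same comparisons. For differentiated and undifferentiated macrophages respectively, 3 and 2 of 4 measured dendritic cell markers were higher, with library means from -1.56 to 0.36 in tumour microglia, from 0.14 to 1.48 in differentiated and from 0.15 to 1.24 in undifferentiated macrophages. Of 6 border-associated macrophage markers 4 were higher and 1 lower in each, with means from -1.19 to -0.28, from 0.43 to 1.24 and from -0.013 to 1.23. Of 2 measured T and NK cell markers 2 and 1 were higher, with means from -2.66 to 1.21, from -0.056 to 1.92 and from -0.13 to 1.50. Of 3 measured neutrophil markers 2 and 1 were higher and 1 was lower in each, with means from -0.81 to 0.38, from -0.44 to 0.55 and from -0.54 to 0.45. The part of such cells in the Il1b, Il1rn and other results was not tested.

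Tumour microglia had more Il18bp and Il1b RNA than normal microglia, and 2 of the 8 genes were called, both higher, where 16.7% of all genes were called, 4.66% higher and 12% lower. The median difference of the 8 genes was 0.60, beside -0.25 for all genes. Tumour and grafting were not separable here, since every tumour population came from a chimera and normal microglia did not; experiment and population likewise cannot be told apart here or in any comparison with normal microglia. Against the same normal microglia, 7 of 8 genes were called in differentiated macrophages, 5 higher and 2 lower, where 32.7% of all genes were called, 24.7% higher and 8.02% lower. In undifferentiated macrophages 5 of 8 were called, 4 higher and 1 lower, where 28% were called, 21.8% higher and 6.18% lower. Between differentiated and undifferentiated macrophages none of the 8 genes was called by limma, where 0.0114% of all genes were called. At an unadjusted p under 0.05 there was 1 of the 8 genes, beside 2.79% of all genes. That comparison kept 67.6% of its contrast after the removed directions, the lowest share of the 6 comparisons.

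**Figure D1:**
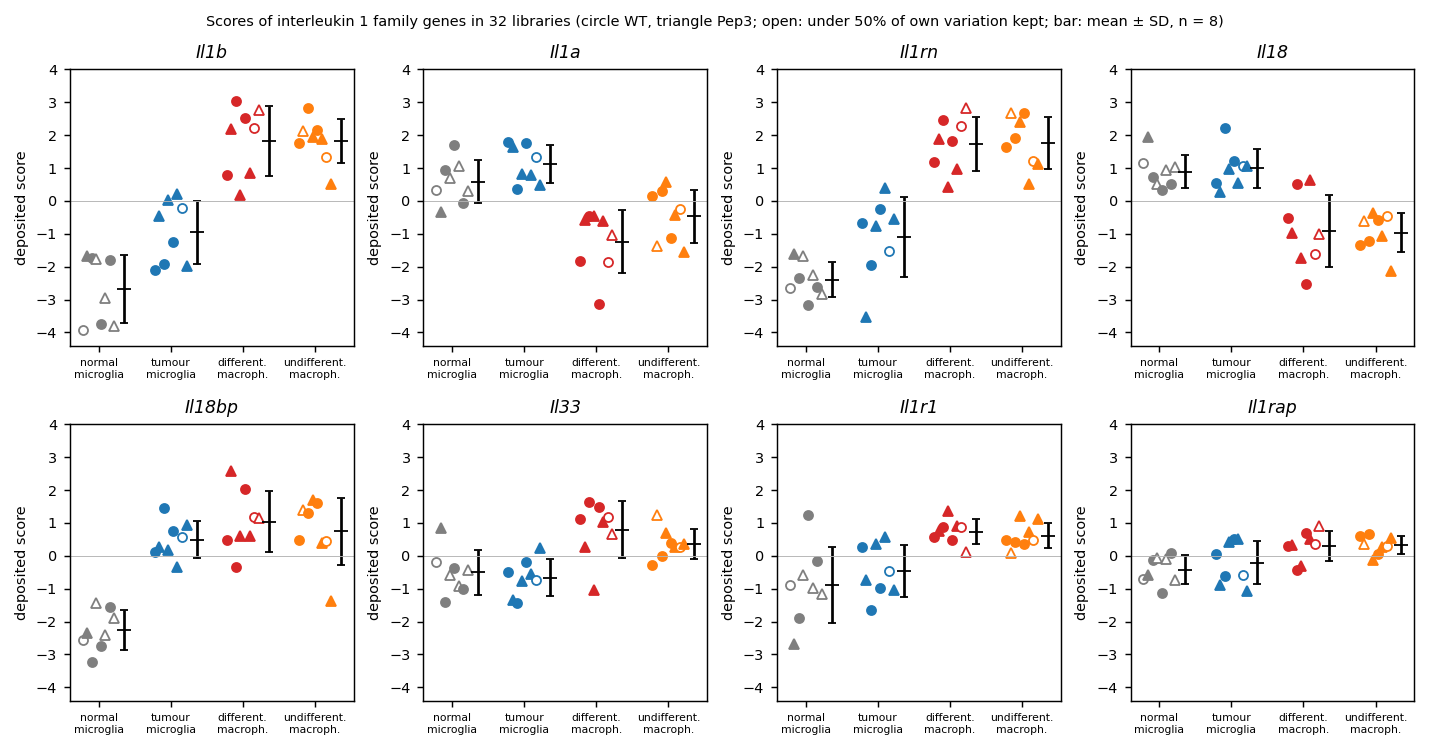
Deposited scores of the 8 measured genes (vertical axis, no unit, 0 is each gene's mean) in 4 populations (horizontal axis). Each point is a library, circles are WT and triangles Pep3 recipients, open points kept under 50% of their own variation, and bars give the mean ± SD of 8 libraries. Il1b and Il1rn scores lie above 0 in all macrophage libraries, and Il18bp scores lie below -1.4 in all normal microglia.

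Il1b, the inflammasome-processed ligand, ranged from -3.92 to -1.69 in normal microglia (median -2.38) and from -2.10 to 0.20 in tumour microglia (median -0.85). It ranged from 0.17 to 3.04 in differentiated (median 2.21) and from 0.51 to 2.82 in undifferentiated macrophages (median 1.92). All 16 macrophage libraries thus lay above all normal microglia, and differentiated macrophages overlapped tumour microglia only at their lowest library, 15, whose 0.17 lay under the 0.20 of tumour microglia library 22. Il1b was higher than in tumour microglia by 2.61 ± 0.54 in differentiated (adjusted p = 0.000607) and by 2.98 ± 0.57 in undifferentiated macrophages (adjusted p = 0.000341). Both calls held whichever single library of the 16 compared was left out. For differentiated macrophages the fitted difference was 3.58 in WT recipients alone (adjusted p = 0.0705) and 1.63 in Pep3 alone (adjusted p = 0.214). For undifferentiated macrophages it was 4.00 in WT (called, adjusted p = 0.0437) and 1.96 in Pep3 (adjusted p = 0.158). The differences between strains were not called (adjusted p = 0.56 and 0.542). Within experiment 3 the deposited means of differentiated and undifferentiated macrophages lay above those of tumour microglia by 2.69 and 2.57, and within experiment 4 by 2.86 and 2.98. In these within-experiment values microglia and macrophages came from different recipient strains. In the values for a single recipient strain, here and below, they came from different experiments.

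Tumour microglia scored above normal microglia in Il1b by 1.83 ± 0.52 (adjusted p = 0.0199), though the groups overlapped. This call was lost without normal microglia library 1 (0.59), 10 (1.65), 18 (1.33) or 26 (1.03), or without tumour microglia library 27 (1.23), all of them among the 9 libraries with little variation kept. Without those 9 libraries it was 0.90 with no removed directions in the model (adjusted p = 0.519) and -0.31 with them (adjusted p = 0.95). Against normal microglia, Il1b was higher by 4.43 ± 0.53 in differentiated (adjusted p = 3.55e-06) and by 4.81 ± 0.56 in undifferentiated macrophages (adjusted p = 3.09e-06), with no overlap of libraries. Il1b had a larger SD over the 32 libraries than 99.7% of genes.

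Il1a, the ligand that is active without cleavage, had lower medians in both macrophage populations than in both microglia groups, opposite to Il1b. The tumour microglia median lay above that of normal microglia for both ligands. Il1a ranged from -0.33 to 1.71 in normal microglia (median 0.52) and from 0.38 to 1.79 in tumour microglia (median 1.09). It ranged from -3.14 to -0.45 in differentiated (median -0.82) and from -1.55 to 0.56 in undifferentiated macrophages (median -0.33). Every differentiated macrophage library lay below every microglia library, whereas 3 undifferentiated macrophage libraries scored above 0, of which library 16 (0.56) overlapped both microglia groups and libraries 5 (0.16) and 13 (0.30) normal microglia alone. Il1a was lower than in tumour microglia by -2.57 ± 0.44 in differentiated (adjusted p = 0.000106) and by -1.48 ± 0.45 in undifferentiated macrophages (adjusted p = 0.0118). The first difference was -1.71 without differentiated macrophage library 28 and still called, and the second was -1.15 and not called without undifferentiated macrophage library 21 (adjusted p = 0.0668). With library medians subtracted the differences were -3.24 and -2.20.

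Against normal microglia, Il1a was lower by -1.93 in differentiated macrophages (adjusted p = 0.00192), a call lost without normal microglia library 10 (-1.54) or differentiated macrophage library 28 (-1.21). By recipient it was -3.46 in WT (called, adjusted p = 0.0116) and -0.40 in Pep3 (adjusted p = 0.817), and the difference between strains was not called (adjusted p = 0.521). The value for undifferentiated macrophages was -0.84 (adjusted p = 0.161), and without undifferentiated macrophage library 29 it was -1.44 and called (adjusted p = 0.0407). Tumour and normal microglia differed by 0.64 in Il1a (adjusted p = 0.307). The 2 macrophage populations differed by -1.09 ± 0.50 in Il1a, with a 95% interval from -2.13 to -0.06 and an adjusted p of 1. In deposited means this difference was -1.59 in WT recipients (experiment 3) and 0.030 in Pep3 recipients (experiment 4).

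Il1rn, the receptor antagonist, followed the order of Il1b. It ranged from -3.16 to -1.61 in normal microglia (median -2.48) and from -3.52 to 0.38 in tumour microglia (median -0.72). It ranged from 0.43 to 2.82 in differentiated (median 1.84) and from 0.52 to 2.69 in undifferentiated macrophages (median 1.77). All 16 macrophage libraries lay above all 16 microglia libraries, and tumour microglia library 6 was the lowest of all. Il1rn was higher than in tumour microglia by 2.90 ± 0.50 in differentiated (adjusted p = 0.000115) and by 3.28 ± 0.52 in undifferentiated macrophages (adjusted p = 7.48e-05). Both calls held whichever single library was left out, and the deposited means differed by 3.04 and 2.97 within experiment 3 and by 2.63 and 2.78 within experiment 4. In WT recipients alone the fitted differences were 2.56 and 2.83 and not called (adjusted p = 0.15 and 0.143). In Pep3 alone they were 3.24 and 3.73 and called (adjusted p = 0.00776 and 0.00516).

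Against normal microglia, Il1rn was higher by 4.08 ± 0.48 in differentiated (adjusted p = 3.43e-06) and by 4.46 ± 0.51 in undifferentiated macrophages (adjusted p = 2.65e-06). Tumour and normal microglia differed by 1.18 ± 0.48 (adjusted p = 0.0908). That value became 1.56 and was called without tumour microglia library 6 (adjusted p = 0.0153), and 1.42 and called with library medians subtracted (adjusted p = 0.038). Without the 9 libraries that kept little variation it was 1.12 with no removed directions in the model (adjusted p = 0.428) and -1.25 with them (adjusted p = 0.733). The same 2 fits gave 3.62 (called) and 0.80 (adjusted p = 0.919) for differentiated macrophages against normal microglia, and 3.87 (called) and 2.01 (adjusted p = 0.482) for undifferentiated macrophages. The fit without these libraries and with the directions has 6 residual degrees of freedom. In Pep3 recipients alone the difference between the microglia groups was -0.058 (adjusted p = 0.975), and in WT recipients 2.41 (adjusted p = 0.205).

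**Figure D2:**
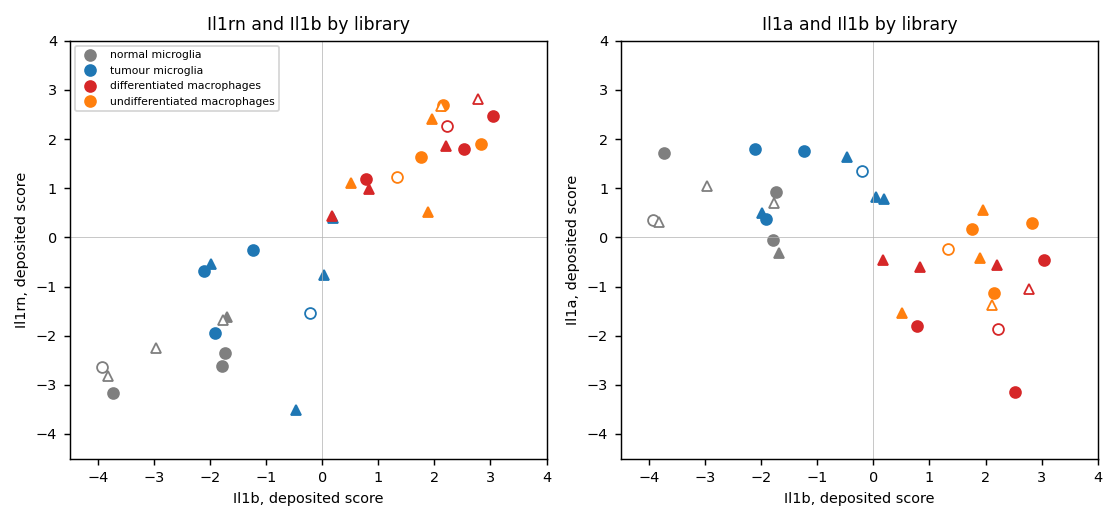
Il1rn (left) and Il1a (right) scores on the vertical axis against the Il1b score on the horizontal axis, 1 point per library, coloured by population, with circles for WT, triangles for Pep3 and open points for libraries that kept under 50% of their own variation. Macrophage libraries lie at the upper right for Il1rn, and differentiated macrophages lie below every microglia library for Il1a.

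Il18, the other inflammasome substrate, was lower in macrophages. It ranged from 0.33 to 1.93 in normal microglia (median 0.83) and from 0.28 to 2.22 in tumour microglia (median 1.01). It ranged from -2.54 to 0.64 in differentiated (median -0.99) and from -2.12 to -0.38 in undifferentiated macrophages (median -0.83). All undifferentiated macrophage libraries lay below all microglia libraries, whereas 2 differentiated macrophage libraries scored above 0 and overlapped both microglia groups. Il18 was lower than in tumour microglia by -1.77 ± 0.47 in differentiated (adjusted p = 0.00402) and by -2.16 ± 0.49 in undifferentiated macrophages (adjusted p = 0.00139). The second call held whichever single library was left out, and the first was lost without differentiated macrophage library 28 (-0.93, adjusted p = 0.269).

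Against normal microglia, Il18 was lower by -1.72 ± 0.45 in differentiated macrophages (adjusted p = 0.00703), a call lost without normal microglia library 1 (-1.29), 18 (-1.57) or 26 (-1.81) or differentiated macrophage library 28 (-1.01). It was lower by -2.11 ± 0.48 in undifferentiated macrophages (adjusted p = 0.0033), a call lost without normal microglia library 1 (-1.70) or 2 (-2.04). Tumour and normal microglia differed by 0.050. Il18 overlaps the genes Bco2 and Tex12 in the RefSeq annotation, and Tex12 was not analysed here. Bco2, which encodes a carotenoid-cleaving enzyme, had differences of -1.71 and -1.95 against tumour microglia and -2.42 and -2.66 against normal microglia in differentiated and undifferentiated macrophages, all called lower. Whether counting used strand is not given in the sources used here, so reads of overlapping genes may not be separable, and the part of Bco2 reads in the Il18 values was not tested. Il1a, Il1b, Il1rap and Il33 likewise overlap noncoding RNAs (Gm14023, Il1bos, Gm20319 and Gm41832), which were not analysed here.

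Il18bp, whose protein captures interleukin 18, separated normal microglia from the other 3 populations. It ranged from -3.23 to -1.43 in normal microglia (median -2.37), from -0.34 to 1.44 in tumour microglia (median 0.42), from -0.34 to 2.57 in differentiated macrophages (median 0.88) and from -1.37 to 1.68 in undifferentiated macrophages (median 0.89). Normal microglia overlapped neither tumour microglia nor either macrophage population; the lowest library outside them was undifferentiated macrophage library 32 at -1.37. Il18bp was higher than in normal microglia by 2.75 ± 0.47 in tumour microglia (adjusted p = 0.000737), by 3.36 ± 0.48 in differentiated (adjusted p = 2.99e-05) and by 3.12 ± 0.51 in undifferentiated macrophages (adjusted p = 0.000153). These 3 calls held whichever single library was left out. The tumour microglia call was lost in WT recipients alone (3.62, adjusted p = 0.0501) and in Pep3 alone (1.88, adjusted p = 0.184). In Pep3 alone the undifferentiated macrophage call was also lost (2.42, adjusted p = 0.114). Without the 9 libraries that kept little variation and with directions in the model, none of the 3 was called (3.44, 4.96 and 4.55). Against tumour microglia the differences were 0.61 (adjusted p = 0.327) and 0.37 (adjusted p = 0.595), and they turned to -0.054 and -0.35 with library medians subtracted. The ligand Il18 and its binding protein thus had different orders: Il18 split microglia from macrophages, Il18bp split normal microglia from the tumour populations.

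Il33, the nuclear alarmin, ranged from -1.40 to 0.86 in normal microglia (median -0.51) and from -1.44 to 0.25 in tumour microglia (median -0.65). It ranged from -1.03 to 1.65 in differentiated (median 1.07) and from -0.28 to 1.26 in undifferentiated macrophages (median 0.32). Most macrophage libraries scored above most microglia, and every pair of populations overlapped. Il33 was higher than in tumour microglia by 1.63 ± 0.37 in differentiated (adjusted p = 0.00118) and by 0.99 ± 0.38 in undifferentiated macrophages (adjusted p = 0.0404). The first call was lost without differentiated macrophage library 28 (1.34, adjusted p = 0.0529). The second was lost without tumour microglia library 6 (0.86), 11 (0.83), 14 (0.97) or 27 (1.16), or undifferentiated macrophage library 8 (0.87), 13 (1.00), 16 (0.92), 21 (0.90) or 29 (1.05). With library medians subtracted the first was 0.96 and called (adjusted p = 0.041), and the second was 0.27 and not called (adjusted p = 0.599).

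Against normal microglia, Il33 was higher by 1.36 ± 0.35 in differentiated macrophages (adjusted p = 0.00651), a call lost without normal microglia library 10 (1.01) or 18 (1.01) or differentiated macrophage library 28 (1.12), and with library medians subtracted (0.94, adjusted p = 0.0571). By recipient this value was 3.05 in WT (called) and -0.33 in Pep3 (adjusted p = 0.821), and the difference between strains was not called (adjusted p = 0.391). Undifferentiated macrophages differed by 0.73 (adjusted p = 0.149) and tumour microglia by -0.27 from normal microglia. In WT recipients the 4 differentiated macrophage libraries scored between 1.12 and 1.65, and in Pep3 recipients between -1.03 and 1.03. Markers of other brain cells were also called in the comparisons with tumour microglia, in which 37% and 36.7% of all genes were called higher. Of 7 astrocyte markers, 5 were called higher and 1 lower in each macrophage population against tumour microglia. The mean astrocyte score per library ranged from -1.05 to 0.20 in tumour microglia, from 0.14 to 0.76 in differentiated and from -0.04 to 0.94 in undifferentiated macrophages. Of 5 measured oligodendrocyte markers 1 was called higher in each, with means from -1.04 to 0.17, from -0.39 to 0.96 and from 0.05 to 0.64. Of 6 measured endothelial markers 5 and 4 were called higher, with means from -1.35 to -0.26, from -0.10 to 1.14 and from 0.12 to 1.17. Against normal microglia, 3 and 1 astrocyte, 2 and 1 oligodendrocyte and 2 and 3 endothelial markers were called higher. There 1 astrocyte marker was lower in each, and 24.7% and 21.8% of all genes were called higher. Scores have no zero level, so absence of these cells cannot be read from them, and their part in the Il33 result was not tested.

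Il1r1, the signalling receptor, ranged from -2.68 to 1.25 in normal microglia (median -0.94) and from -1.64 to 0.56 in tumour microglia (median -0.59). It ranged from 0.10 to 1.35 in differentiated (median 0.82) and from 0.10 to 1.21 in undifferentiated macrophages (median 0.48). All macrophage libraries scored above 0, as did 3 tumour and 1 normal microglia library, and the groups overlapped. Il1r1 was higher than in tumour microglia by 1.19 ± 0.44 in undifferentiated macrophages (adjusted p = 0.0327), while the difference for differentiated macrophages was 1.02 ± 0.42 (adjusted p = 0.0535). The call was lost without tumour microglia library 6 (1.11), 11 (1.04), 27 (1.11) or 30 (1.02), or undifferentiated macrophage library 5 (1.17), 16 (1.10), 21 (1.23), 29 (1.05) or 32 (1.15). The value for differentiated macrophages was called without tumour microglia library 3 (1.19), 14 (1.12) or 22 (1.11) or differentiated macrophage library 31 (1.32). With library medians subtracted the differences were 0.35 and 0.47, neither called (adjusted p = 0.548 and 0.452 for differentiated and undifferentiated macrophages).

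Against normal microglia, Il1r1 was higher by 1.58 ± 0.41 in differentiated (adjusted p = 0.00614) and by 1.75 ± 0.43 in undifferentiated macrophages (adjusted p = 0.00574). The first call was lost without normal microglia library 26 (1.32) or differentiated macrophage library 28 (1.45), the second without normal microglia library 26 (1.51), and both with library medians subtracted (1.15 and 1.27, adjusted p = 0.0576 and 0.06). Tumour and normal microglia differed by 0.56 (adjusted p = 0.361). By recipient this value was -1.15 in WT and 2.27 in Pep3, and the difference between strains was not called (3.42 ± 1.28, adjusted p = 0.12). Against normal microglia, Il1r1 differed by -0.099 in WT (adjusted p = 0.946) and by 3.25 in Pep3 (adjusted p = 0.012) for differentiated macrophages, and by 0.14 (adjusted p = 0.919) and 3.36 (adjusted p = 0.012) for undifferentiated macrophages. Those differences between strains were not called either (adjusted p = 0.468 and 0.423). Of the Pep3 normal microglia in these values, libraries 10, 18 and 26 kept 8.6%, 23.9% and 22.8% of their own variation. The remaining one, library 2, had the lowest Il1r1 score of all libraries (-2.68). In normal and tumour microglia the median astrocyte marker means were -0.16 and -0.67, and the median endothelial marker means -0.35 and -0.63. Marker counts in macrophages are given with Il33. The part of such cells in the Il1r1 values was not tested.

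Il1rap, the accessory chain shared by the receptors for interleukin 1 and interleukin 33, ranged from -1.14 to 0.10 in normal and from -1.06 to 0.50 in tumour microglia, with medians of -0.36 and -0.27. It ranged from -0.43 to 0.92 in differentiated and from -0.12 to 0.65 in undifferentiated macrophages, with medians of 0.35 and 0.32. All 4 groups overlapped, and no comparison was called. Its differences from tumour microglia were 0.53 (adjusted p = 0.257) and 0.66 (adjusted p = 0.177), and -0.14 and -0.064 with library medians subtracted. Its SD over the libraries was larger than that of 9.66% of genes, the lowest percentile among the 8 genes.

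**Figure D3:**
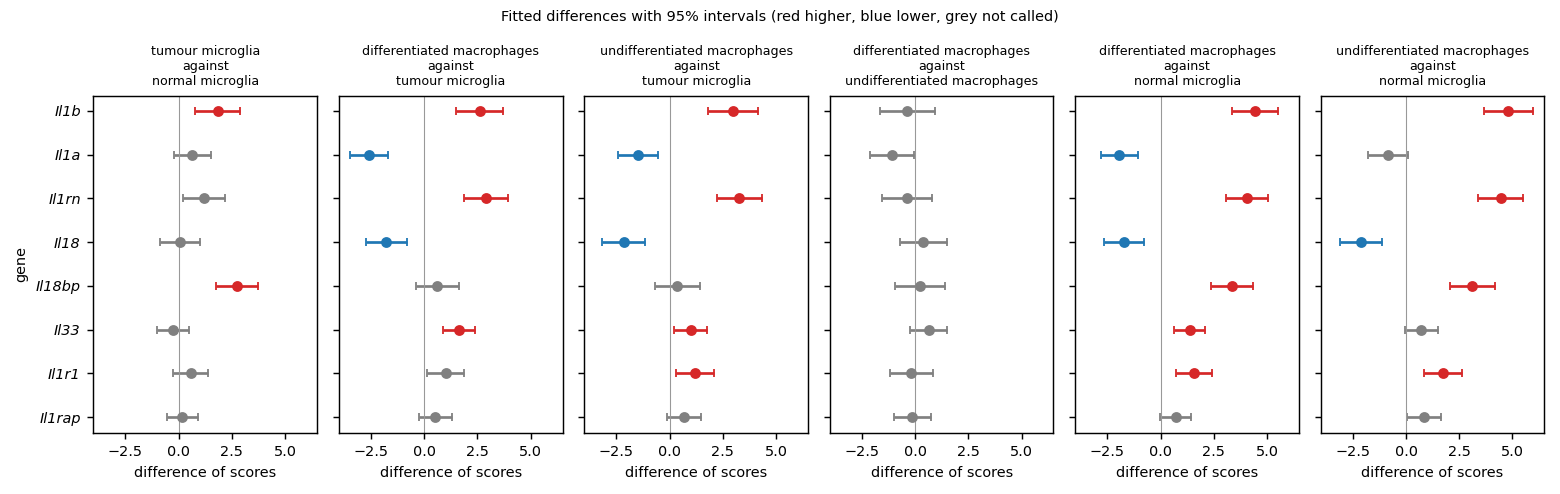
Fitted differences of scores (horizontal axis, no unit) with 95% intervals for the 8 genes in 6 comparisons; red marks genes called higher, blue called lower and grey not called at an adjusted p under 0.05. Il1b and Il1rn are higher and Il18 lower in both macrophage populations against either microglia population, and nothing is called between the macrophage populations.

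Between the macrophage populations the 95% intervals allowed differences in either direction for 7 of the 8 genes. For Il1b the difference was -0.37 with an interval from -1.66 to 0.91, and for Il1rn it was -0.38 with an interval from -1.56 to 0.80. For Il18 it was 0.39 (-0.72 to 1.50), for Il18bp 0.24 (-0.92 to 1.41) and for Il33 0.63 (-0.23 to 1.50). These intervals are wide against the differences between macrophages and microglia, and a missed threshold does not show that the populations were alike. The deposited Il33 means differed by 1.26 in WT and by -0.41 in Pep3 recipients. Each population of a given recipient strain was in a single experiment, so strain and experiment cannot be told apart in tests between strains. None of the 48 tests of a difference between recipient strains, 8 genes in 6 comparisons, was called by limma. An unadjusted p under 0.05 was found in 7 of them. The share of all genes at that threshold was not counted, so the 7 cannot be read as an excess. Over all genes such strain differences were called for 5.03% in tumour against normal microglia, 0.449% and 0.00569% in differentiated and undifferentiated macrophages against tumour microglia, 0.0171% and 0.0227% in the same populations against normal microglia, and 0% between the macrophages.

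**Figure D4:**
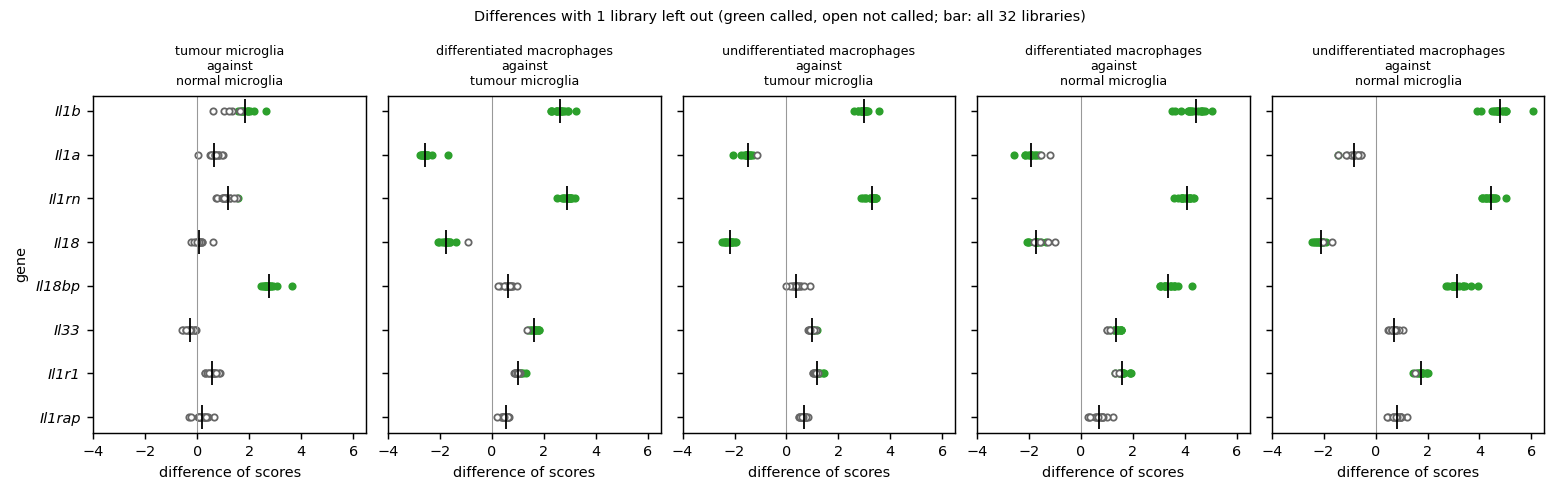
Fitted differences (horizontal axis, no unit) for the 8 genes in 5 comparisons after leaving out 1 library at a time; green points were called, open points were not, and the vertical bar is the value with all 32 libraries. Every point for Il1b and Il1rn in macrophages, and for Il18bp against normal microglia, is green, while the points for Il33, Il1r1 and the tumour against normal microglia value of Il1b are mixed.

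Other genes of the pathway were described from lists by role. Of 5 other family ligands, Il1f5 and Il1f9 were measured, and Il1f9, also called interleukin 36 gamma, was higher than in tumour microglia by 1.70 ± 0.31 in differentiated and by 1.54 ± 0.33 in undifferentiated macrophages. The second fell to 0.82 and was not called with library medians subtracted. Of 7 other family receptors 6 were measured, and 4 were called higher in each macrophage population against tumour microglia, beside 37% and 36.7% of all genes. In differentiated macrophages the named ones were Il18r1, the ligand-binding interleukin 18 receptor chain (1.97 ± 0.35), the accessory protein-like receptor Il1rapl1 (1.69 ± 0.36) and the interleukin 18 accessory chain Il18rap (1.38 ± 0.41). The Il18rap call was lost without tumour microglia library 27 (1.11). In undifferentiated macrophages they were Il1rapl1 (1.86 ± 0.38), Il1rapl2 (1.84 ± 0.38) and Sigirr, an inhibitory receptor (1.53 ± 0.61). The Sigirr call was lost in 11 fits that each left out 1 library, with values from 0.86 to 1.73.

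Among 12 genes of cytokine maturation and release, 3 were called higher and 3 lower in each macrophage population against tumour microglia. Over all genes 37% and 36.7% were called higher and 6.35% and 5.19% lower. Mefv, which encodes the inflammasome sensor pyrin, was higher by 4.16 ± 0.53 in differentiated and by 5.36 ± 0.55 in undifferentiated macrophages, and Nlrc4, another sensor, by 2.24 ± 0.35 and 2.05 ± 0.37. The channel gene Panx1 was higher by 2.14 ± 0.49 in differentiated macrophages, a call lost without library 28 of that group (1.65). The DNA sensor Aim2 was lower by -1.76 ± 0.36 in differentiated and by -1.77 ± 0.38 in undifferentiated macrophages. The other lower calls in both populations were the pore-forming Gsdmd (-1.44 ± 0.41 and -1.40 ± 0.43) and the inflammasome adaptor Pycard (-0.87 ± 0.30 and -0.79 ± 0.31). The calls of Gsdmd and Pycard in differentiated macrophages were lost without library 28 of that group (-1.37 and -0.71), and that of Gsdmd in undifferentiated macrophages without library 29 (-1.07). That of Pycard in undifferentiated macrophages was lost in 12 of 16 fits that each left out 1 library, with values from -0.62 to -0.89. Maturation and release genes thus moved in both directions within a population. The Mefv, Nlrc4 and Aim2 calls held whichever single library was left out.

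Among 17 genes of receptor signalling, 1 was called in each macrophage population against tumour microglia, where 43.4% and 41.9% of all genes were called. Irak2, a kinase of the pathway, was lower by -1.27 ± 0.35 in differentiated macrophages, a call lost without library 28 of that group (-1.18). Tollip, an adaptor that restrains the pathway, was higher by 1.44 ± 0.40 in undifferentiated macrophages and not called with library medians subtracted (0.72). Of 9 measured NF-kappaB target genes induced by interleukin 1, 2 were called higher in differentiated and 3 in undifferentiated macrophages, beside 37% and 36.7% of all genes. The neutrophil chemokine Cxcl2 was higher by 2.83 ± 0.55 and 1.96 ± 0.57, and Ptgs2, which encodes cyclooxygenase 2, by 2.11 ± 0.42 and 1.25 ± 0.44. Nos2, the inducible nitric oxide synthase, was higher by 1.54 ± 0.52 in undifferentiated macrophages, a call lost without library 21 (1.24) or 29 (1.15) of that group. For undifferentiated macrophages, Ptgs2 was not called without tumour microglia library 11 or 14 or undifferentiated macrophage library 8, 21, 24 or 29 (values from 1.14 to 1.31), and Cxcl2 was not called with library medians subtracted (1.24).

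Between tumour and normal microglia 7 of the 46 measured genes of these lists were called, 2 higher and 5 lower, where 16.7% of all genes were called, 4.66% higher and 12% lower. Lower were Il1f5 (-1.23 ± 0.41), Il1rapl2 (-1.25 ± 0.36), Il1rapl1 (-1.10 ± 0.35), Nlrc4 (-1.16 ± 0.34) and Tab2, an adaptor of the signalling kinase Tak1 (-0.99 ± 0.30). Higher were the feedback inhibitor Tnfaip3 (1.35 ± 0.39) and the NF-kappaB cofactor Nfkbiz (1.32 ± 0.45). Each of these 7 calls was lost without normal microglia library 1, 10 or 18. Without library 1 the values were -1.27 for Il1f5, -0.89 for Il1rapl2, -1.74 for Il1rapl1, -1.63 for Nlrc4, -1.21 for Tab2, 0.24 for Tnfaip3 and 0.83 for Nfkbiz. Against normal microglia, Mefv was higher by 3.17 ± 0.51 in differentiated and by 4.37 ± 0.55 in undifferentiated macrophages, and Cxcl2 by 3.61 ± 0.53 and 2.74 ± 0.57. Ptgs2 was higher by 1.89 ± 0.41 in differentiated macrophages. These 5 calls held whichever single library was left out, and the other 18 of 23 named in these 2 comparisons did not.

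**Figure D5:**
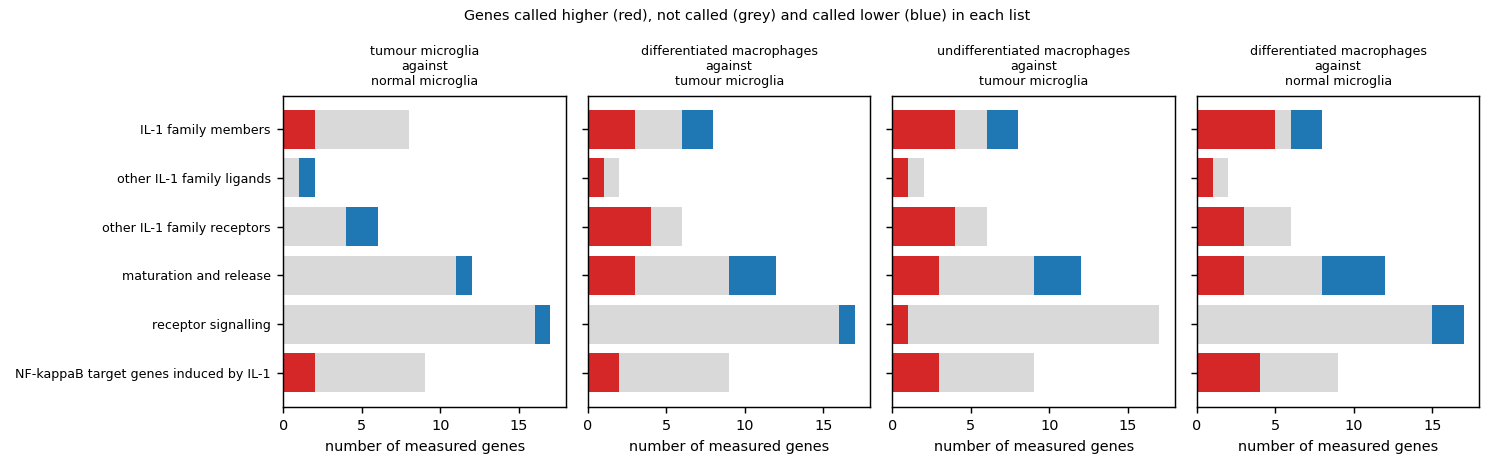
Number of measured genes (horizontal axis) called higher (red), not called (grey) and called lower (blue) in the family genes and 5 pathway lists (vertical axis), in 4 comparisons. Maturation and release genes split into 3 higher and 3 lower in both macrophage populations against tumour microglia, and most receptor signalling genes were not called.

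The genes whose scores were most like each family gene over the 32 libraries were ranked by Pearson's r, which here mainly reflects the 4 populations and the variation the libraries share. Il1b was most like Msr1, a scavenger receptor (r = 0.964), Ccr1, a chemokine receptor (r = 0.936), and AW112010 (r = 0.932). Il1rn was most like the complement gene Cfb (r = 0.952), the scaffold gene Iqgap1 (r = 0.927) and the galectin gene Lgals3 (r = 0.920). Il1a was most like 1110004F10Rik (r = 0.842), Wtip (r = 0.840) and Zmynd11 (r = 0.838). The closest gene to Il18 was Pld4 (r = 0.914), to Il18bp Sav1 (r = 0.886), to Il33 Gm10857 (r = 0.847), to Il1r1 Rmnd5a (r = 0.888) and to Il1rap Zhx1 (r = 0.868). These values are descriptions over libraries that were not independent of one another.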

How the data were processed

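RNA of 32 sorted mouse brain libraries was made into cDNA with the SMART-Seq v4 Ultra Low Input kit, per the labels' protocols. The submitters' processing notes name FastQC, STAR 2.5.0a, RSEM 1.3.0 and build mm9. The sources used here do not give how the values were normalised. The authors deposited 1 table of signed scores, called normalised gene counts in its name, for 17586 genes, with values from -6.50 to 6.92 and a mean of 0 for each gene overall and within each recipient strain, tested on the table. Such scores cannot be tested as counts.

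The scores lacked variation in 11 of the 32 library directions. All genes and libraries were fitted in limma 3.58.1 (R 4.3.3) with 1 mean per population within a strain and with covariates for those directions (15 residual degrees of freedom). Variances were moderated robustly, tests were two-sided, and p-values were adjusted by Benjamini and Hochberg's method over all genes for each of 6 comparisons. The fit was tested on simulated data. Regressing on the removed directions gives the coefficients that the values before removal would give with the same covariates. Comparisons between tumour populations are balanced over the 2 tumour experiments; those with normal microglia are not.

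The 9 genes, the pathway lists and the marker lists were chosen with earlier results of these data known. Named genes were all family genes, up to 3 called genes with the largest absolute difference per list and comparison, the 3 genes most correlated with each of Il1a, Il1b and Il1rn, and the 1 most correlated with each other family gene; Bco2, Gsdmd, Pycard and Aim2 in differentiated macrophages were chosen after their values were seen. Of 51 pathway values so named, those whose call was lost without a single library are given in full only against tumour microglia and between microglia. Alternatives were the removed directions left out, library medians subtracted, only the 2 populations compared, the libraries under 50% left out, library weights, ordinary variances, 1 recipient strain, 1 library left out and a threshold of 0.01. Promoter sequences came from RefSeq tables on GRCm38.p6, used for sequence and neighbouring genes only, since the table was made on mm9.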

Additional observations from a re-analysis of the deposited data

Results flagged for a closer look

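Il18bp in undifferentiated macrophage library 32 had a score of -1.37, far from the other 7 libraries of that group. Of 32 groups of 8 libraries tested this way, for 8 genes in 4 populations, it was the 1 past Dixon's 95% critical value, where chance gives about 1 in 20 groups. Without that library the difference of Il18bp against normal microglia stayed called.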

How the results depend on the processing

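No paired analysis was run. No replicate number in the labels is shared between groups, and the experiment number is already fixed by population and recipient strain, whose means the model holds. The library numbers repeat the same order of populations and recipient strains, but no label calls a repeat a batch or an animal. Such repeats were therefore not fitted as blocks, and their part in the results was not tested. Il1b and Il1rn in both macrophage populations against either microglia population, and Il18bp in all 3 tumour populations against normal microglia, kept their call in every fit that left out 1 library.

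The number of the 8 genes called, when 1 library was left out, ranged from 1 to 3 for tumour against normal microglia, from 3 to 6 for differentiated and from 3 to 6 for undifferentiated macrophages against tumour microglia, from 3 to 7 for differentiated and from 4 to 6 for undifferentiated macrophages against normal microglia, and stayed at 0 between macrophages. For tumour against normal microglia it was 1 with only the 2 populations fitted, 1 without the 9 libraries under 50% and no directions in the model, 1 with library weights, 1 at a threshold of 0.01, and 0 without those libraries with directions in the model, 0 in WT and 0 in Pep3 alone. Against tumour microglia it was 0 and 0 with only the 2 populations fitted (3 residual degrees of freedom), 0 and 0 without the libraries under 50% with directions in the model (6 residual degrees of freedom), 1 and 1 in WT alone and 1 and 1 in Pep3 alone, for differentiated and undifferentiated macrophages; undifferentiated macrophages had 3 at a threshold of 0.01. Against normal microglia it was 0 for differentiated macrophages with only the 2 populations fitted, 0 and 0 without the libraries under 50% with directions in the model, 4 for differentiated macrophages in Pep3 alone, and for undifferentiated macrophages 3 in WT alone, 3 in Pep3 alone and 8 with directions not in the model. The smaller fits have fewer residual degrees of freedom by construction, and other causes were not tested. Shares of all genes called in these fits are not given beside the counts. The changes in the counts therefore cannot be read as particular to the 8 genes.

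These values changed sign. With directions in the model and without the libraries under 50%, they were Il1b -0.31 and Il1rn -1.25 in tumour against normal microglia, Il33 -0.12, Il18r1 -0.16 and Panx1 -2.67 in differentiated and Il33 -0.27 and Panx1 -2.00 in undifferentiated macrophages against normal microglia, Panx1 -1.15 in differentiated macrophages against tumour microglia, and Il1rap 0.063 between macrophages. Without those libraries and directions they were Il18 -0.21 between microglia and Il1r1 0.11 between macrophages, and with directions left out Il1r1 0.13 between macrophages. In WT alone they were Il1a -0.11, Il1r1 -1.15, Il33 0.81, Nlrc4 0.31 and Il1rapl2 0.49 between microglia, Il1r1 -0.099 in differentiated macrophages against normal microglia, Il18bp -0.079 in differentiated and Ptgs2 -0.46 in undifferentiated macrophages against tumour microglia, and Il18bp -0.28 between macrophages. In Pep3 alone they were Il1rn -0.058, Il1rap -0.12 and Il18 -0.79 between microglia, Il33 -0.33, Il1f9 -0.17, Il18r1 -0.27 and Irak2 0.47 in differentiated and Il1f9 -0.13 in undifferentiated macrophages against normal microglia, and Il33 -0.44 and Il1rap 0.027 between macrophages. With library medians subtracted they were Il18bp -0.054 and Il1rap -0.14 in differentiated and Il18bp -0.35 and Il1rap -0.064 in undifferentiated macrophages against tumour microglia. With only the 2 populations fitted they were Il1r1 0.057 and Il1rn 0.18 between macrophages and Il1rap -0.16 in undifferentiated macrophages against tumour microglia. The causes were not tested.

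Values that changed sign when 1 library was left out, none of them called, ranged as follows: Il18 from -0.26 to 0.62 for tumour microglia against normal microglia, Il1rap from -0.33 to 0.63 for tumour microglia against normal microglia, Il18bp from -0.0060 to 0.89 for undifferentiated macrophages against tumour microglia, Il18 from -0.012 to 0.78 for differentiated macrophages against undifferentiated macrophages, Il18bp from -0.14 to 0.77 for differentiated macrophages against undifferentiated macrophages, Il1b from -0.71 to 0.14 for differentiated macrophages against undifferentiated macrophages and Il1rap from -0.31 to 0.043 for differentiated macrophages against undifferentiated macrophages. Depth per library is unknown, so no counting error can be given for any value.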
